A study of Mus musculus with 9 samples.

Results

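The transcripts described here are 10 genes of the FGF4 and ERK pathway in mouse embryonic stem (ES) cells: the ligand gene Fgf4 and 9 genes of the ERK feedback loop, Spry1, Spry2, Spry4, Spred1, Spred2, Dusp4, Dusp6, Etv4 and Etv5. They were chosen by gene symbol, and all 10 were found among the 22322 genes of the deposited expression tables and among the 13158 genes with enough reads to test. RNA-seq had been run on 9 libraries of R1 cells, an established mouse ES cell line, with 3 libraries in each of 3 groups: cells with a hairpin against Pfkp (sh-Pfkp), cells with a hairpin against Lin41 (sh-Lin41) and cells with a control hairpin (sh-ctrl, genotype labelled WT). All 3 groups had been held in suspension for 6 days in medium without LIF, the cytokine that sustains mouse ES cells, so that they formed embryoid bodies. Pfkp encodes the platelet-type phosphofructokinase of glycolysis, and Lin41 is the RNA-binding protein encoded by Trim71. The sample titles name 1 hairpin group per target, do not state how many hairpins were used, and include no rescue group. An effect of a hairpin itself and an effect of losing its target therefore cannot be told apart. Whether the libraries of a group are separate cultures is not stated, so the p-values reflect the spread between libraries alone, and that spread may be technical.

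FGF4 is the main FGF made by mouse ES cells and acts on the cells that secrete it. It binds FGF receptors and, through RAS and MEK, activates the kinase ERK, which moves ES cells out of the naive pluripotent state towards differentiation. Active ERK switches on genes that restrain the pathway (Sprouty and SPRED proteins, which act on RAS activation, and DUSP phosphatases, which dephosphorylate ERK) as well as the PEA3-type ETS factors ETV4 and ETV5, so the transcripts of these genes are widely used as a record of recent ERK activity.

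RefSeq promoter windows of build GRCm38.p6 were matched for 7 of the 10 genes (8 windows, since Etv5 has more than one start); Spry4, Dusp4 and Etv4 had none. The 250 bases before the start are shown for 4 genes: Etv5 and Dusp6, whose windows hold the string TGAATG on either strand, and Spry1 and Spry2, a pair from the same family that moved in opposite directions. Each is written 5′ to 3′ on the gene's strand, and capitals mark that string on either strand. It is the shared start of the TGAATGAA and TGAATGGA octamers bound by Capicua, a repressor of Etv4, Etv5 and other genes that ERK inactivates.
Etv5: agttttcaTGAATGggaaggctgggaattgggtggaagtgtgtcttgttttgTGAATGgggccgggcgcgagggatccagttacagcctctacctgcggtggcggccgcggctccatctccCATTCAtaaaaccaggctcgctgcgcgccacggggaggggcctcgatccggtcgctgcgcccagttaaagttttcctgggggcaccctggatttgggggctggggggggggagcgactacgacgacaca
Dusp6: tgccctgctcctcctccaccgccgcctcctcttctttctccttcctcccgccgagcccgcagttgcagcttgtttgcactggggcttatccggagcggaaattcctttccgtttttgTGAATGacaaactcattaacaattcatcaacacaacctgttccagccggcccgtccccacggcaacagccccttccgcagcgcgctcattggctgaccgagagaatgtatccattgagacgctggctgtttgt
Spry1: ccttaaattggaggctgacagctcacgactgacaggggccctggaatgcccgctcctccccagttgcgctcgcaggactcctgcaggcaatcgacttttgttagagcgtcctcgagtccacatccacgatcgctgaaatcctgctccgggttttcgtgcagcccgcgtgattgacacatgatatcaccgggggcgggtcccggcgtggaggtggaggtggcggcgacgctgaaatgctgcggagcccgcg
Spry2: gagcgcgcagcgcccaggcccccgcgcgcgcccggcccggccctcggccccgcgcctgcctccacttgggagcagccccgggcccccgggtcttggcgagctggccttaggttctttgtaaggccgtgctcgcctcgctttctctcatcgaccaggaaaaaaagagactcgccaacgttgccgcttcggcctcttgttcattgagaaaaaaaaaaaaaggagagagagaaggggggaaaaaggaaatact

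The Etv5 window lies on the minus strand at chr16:22438369-22438618, inside an intron of Etv5 in GENCODE vM21 and next to the more downstream of its starts. It holds 3 copies of the core string, and 31 of the 32851 promoter windows of the build (0.0944%) hold 3 or more. The Dusp6 window, on the plus strand at chr10:99262981-99263230, holds 1 copy and overlaps no annotated gene, whereas 10.9% of all windows hold at least 1. The windows of Spry1 (plus strand, chr3:37639697-37639946) and Spry2 (minus strand, chr14:105896820-105897069) hold none, as do those of Fgf4, Spred1 and Spred2 and the other Etv5 window. The Spry2 window overlaps no annotated gene, and the Spry1 window lies wholly within an exon of Gm42922, an unclassified transcript on the opposite strand. The core string was picked after these windows had been read, so its counts are a description. None of the 8 windows holds the full octamers TGAATGAA (1.08% of all windows) or TGAATGGA (1.01%), the ETS string CCGGAAG (6.91%) or the AP-1 string TGANTCA (6.75%) on either strand, which says only that these letters are not in these windows. All 8 were GC-rich: their GC content lay between 56% and 71.2%, against a median of 52.4% over all windows, and they held 12 to 31 CpG dinucleotides, against a median of 6. The Spry1 and Spry2 windows had the same values, 62.4% GC and 23 CpG.

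Levels are given in CPM (counts scaled to library size, with TMM factors) for comparisons of 1 gene between groups, and in the deposited FPKM, which is per length, for comparisons between genes. The hairpins' own targets were lower in their own knockdown. Pfkp had 102.5, 101.2 and 104.9 CPM in sh-Pfkp, against 248.3, 245 and 248 CPM in sh-ctrl, a log2 fold change of -1.27 (SE 0.0271). Trim71 had 165.1, 157.7 and 155.9 CPM in sh-Lin41, against 273, 263.7 and 269.7 CPM in sh-ctrl, a log2 fold change of -0.75 (SE 0.0257), and it was higher in sh-Pfkp (0.39, SE 0.0238). Pfkp was in turn slightly lower in sh-Lin41 than in sh-ctrl, at 232.6, 226.9 and 221.8 CPM (-0.12, SE 0.0243). Total counts per library lay between 15495194 and 20607683. All 10 pluripotency markers checked had at least 1 CPM in every group, and their summed level was 4535 to 4573 CPM in sh-Pfkp, 5477 to 5495 CPM in sh-Lin41 and 4701 to 4735 CPM in sh-ctrl. Its members went both ways in sh-Pfkp against sh-ctrl, with 6 higher and 4 lower in mean CPM, among them Tdgf1 at 551 CPM in sh-Pfkp and 984 CPM in sh-ctrl. Sums over 10 primitive or extraembryonic endoderm markers stayed under 9 CPM in every library, with Afp at 0 throughout, and 10 streak and mesoderm markers summed to 15.2 to 15.8 CPM in sh-Pfkp, 12.2 to 12.8 CPM in sh-Lin41 and 17.7 to 18.8 CPM in sh-ctrl, most of it from Eomes. Sums over 10 neuroectoderm markers were 137.3 to 145 CPM in sh-Pfkp, 114.9 to 119.3 CPM in sh-Lin41 and 117.5 to 120.3 CPM in sh-ctrl. Tubb3 was the largest member, at 80.3 CPM in sh-Pfkp, 53.5 CPM in sh-Lin41 and 66.8 CPM in sh-ctrl. Against sh-ctrl, 7 members were higher and 2 lower in mean CPM in sh-Pfkp, and 8 higher and 2 lower in sh-Lin41. These counts include members near 0, since 4 of the 10 had a mean under 1 CPM in each group. Counted as higher in sh-Lin41 were Neurog2 (0.0167 CPM, 0 in sh-ctrl), Neurog1 (0.0184, 0 in sh-ctrl) and Zic1 (0.234, 0.232 in sh-ctrl). Nes, also counted, was close to level (18.1 in sh-Lin41, 17.9 in sh-ctrl), and the sh-Lin41 sums overlapped those of sh-ctrl. Sums over 10 fibroblast or stromal markers were 30.5 to 34.7 CPM in sh-Pfkp, 11.7 to 13.7 CPM in sh-Lin41 and 16.4 to 16.8 CPM in sh-ctrl, with Dcn, Lum and Postn at 0 in sh-Lin41 and sh-ctrl. Of these 10, 8 had a higher mean CPM in sh-Pfkp than in sh-ctrl and 2 a lower one. The lower ones were Pdgfrb (mean 2.57 CPM in sh-Pfkp, 8.28 in sh-ctrl) and Thy1 (1.85 in sh-Pfkp, 3.7 in sh-ctrl). Among the 8 higher ones, Vcam1, Col3a1 and Col1a2 were nearly absent from sh-ctrl, with means of 0.0213, 0.0395 and 0.0213 CPM. In sh-Pfkp these means were 6.48, 5.22 and 5.08 CPM, whereas sh-Lin41 had 0.0344, 0.0322 and 0.169. Twist1, also counted as higher, was close to level (2.73 in sh-Pfkp, 2.68 in sh-ctrl). Sums over 7 trophoblast markers were 61.3 to 64.8 CPM in sh-Pfkp, 40.6 to 44.2 CPM in sh-Lin41 and 52.8 to 58.6 CPM in sh-ctrl, most of it from Tfap2c. The part of these other cell types in the results below was not tested, and in bulk RNA fewer cells of a type and less RNA per cell cannot be told apart.

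The loop was transcribed in all 3 groups, and its members spanned a wide range of levels. In sh-ctrl libraries Etv5 was the most abundant at 112.6 ± 1.43 FPKM (SD, n = 3), above 95.2% of tested genes. Fgf4 followed at 66.7 ± 1.56 FPKM, Etv4 at 57.6 ± 1.09 FPKM and Spry4 at 39 ± 0.387 FPKM. Below them came Spred2 at 30.4 FPKM and Spred1 at 20.2 FPKM, then Spry2 at 18.6 FPKM and Dusp6 at 18.6 FPKM, whose libraries overlapped and were not ordered. Spry1 at 5.19 FPKM and Dusp4 at 2.39 FPKM were the lowest, the last above 26.4% of tested genes.

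The order of FPKM levels differed between groups at a few places. In sh-Pfkp the libraries of Spry4 (50.3 ± 1.25 FPKM) and Etv4 (52.5 ± 1.44 FPKM) overlapped, whereas in sh-Lin41 Spry4 at 62.8 ± 0.411 FPKM stood above Etv4 at 55.1 ± 0.735 FPKM (SD, n = 3). Spry1 and Dusp4 overlapped in sh-Pfkp (3.72 and 3.31 FPKM), and Spred1 and Spred2 overlapped in sh-Lin41 (31 and 31.2 FPKM). Spry2 stood above Spred1 in sh-Pfkp (27.5 and 26.3 FPKM) and below it in sh-Lin41 (24 and 31 FPKM) and in sh-ctrl.

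**Figure D1:**
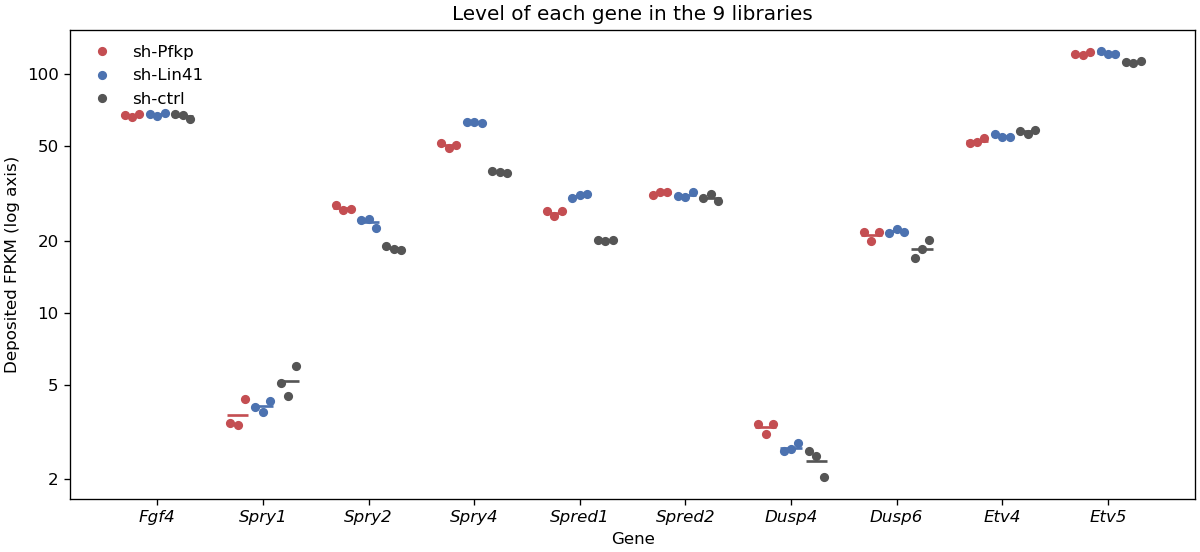
Deposited FPKM (log axis) of each of the 10 genes in the 9 libraries; points are libraries, short lines are means of 3. Spry2, Spry4 and Spred1 lie higher in both knockdowns than in sh-ctrl, Spry1 lies lower, and the Fgf4 points of the 3 groups overlap.

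In the Pfkp knockdown, 8 of the 10 genes were higher than in control and 2 were lower at an edgeR adjusted p under 0.05. Over all tested genes 28.3% were called higher and 28.3% lower in this comparison. The higher genes were Fgf4, Spry2, Spry4, Spred1, Spred2, Dusp4, Dusp6 and Etv5, and the lower ones were Spry1 and Etv4. None changed by 2-fold or more: the median absolute log2 fold change was 0.33 over the 10 genes and 0.21 over all tested genes. The median signed change was 0.19 over the 10 genes and close to 0 over all genes. The all-gene calls split 3721 higher to 3730 lower with TMM scaling, and 3018 higher to 4477 lower with total counts as the only scaling, which shifted the median of all genes by -0.048.

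In the Lin41 knockdown, 5 of the 10 genes were higher than in control (Spry2, Spry4, Spred1, Dusp6 and Etv5), 1 was lower (Spry1) and 4 were not called (Fgf4, Spred2, Dusp4 and Etv4). The all-gene shares were 26.9% higher and 27.3% lower. Again none changed by 2-fold, and the median absolute log2 fold change was 0.22 over the 10 genes and 0.2 over all tested genes. Both knockdowns were compared with the same 3 sh-ctrl libraries, so values are given side by side and their likeness was not tested.

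**Figure D2:**
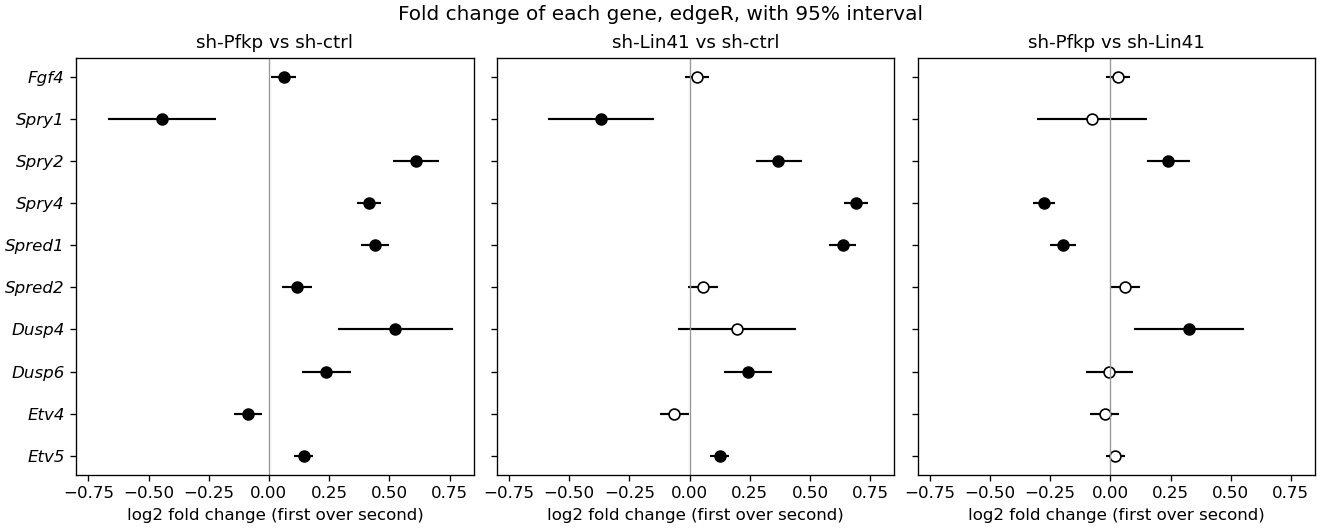
log2 fold change of each gene (horizontal axis) with its unadjusted 95% interval in the 3 comparisons. Filled points passed an edgeR adjusted p of 0.05 and open points did not. Spry4 and Spred1 lie farther right in the Lin41 panel than in the Pfkp panel, and Spry2 and Dusp4 lie farther right in the Pfkp panel.

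Fgf4, the ligand of the loop, was nearly level across the groups. It had 208.5, 205.3 and 211.1 CPM in sh-Pfkp, 204.7, 202 and 205.3 CPM in sh-Lin41, and 203.5, 201.7 and 194 CPM in sh-ctrl. The sh-Pfkp libraries all lay above sh-ctrl in CPM, while the sh-Lin41 libraries overlapped sh-ctrl. Against sh-ctrl the log2 fold change was 0.06 in the Pfkp knockdown (SE 0.0252, edgeR adjusted p = 0.0401, n = 3 a group) and 0.03 in the Lin41 knockdown (SE 0.0251, adjusted p = 0.314; 95% interval -0.02 to 0.08). The Pfkp call was lost in DESeq2 (adjusted p = 0.061), with total-count scaling (0.01, adjusted p = 0.688), and without sh-ctrl library 3 (adjusted p = 0.191), sh-Pfkp library 1 (0.0594) or sh-Pfkp library 3 (0.105). In FPKM its groups overlapped, at 66.1 to 68.3 in sh-Pfkp and 64.9 to 67.9 in sh-ctrl.

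The Sprouty genes, which encode membrane-associated inhibitors of receptor tyrosine kinase signalling to RAS and ERK, did not move together. Spry2 had 60.1, 57.7 and 58.1 CPM in sh-Pfkp, 50.6, 51.2 and 46.9 CPM in sh-Lin41, and 39.3, 38.2 and 37.7 CPM in sh-ctrl. All 3 groups were separate, with sh-Pfkp highest and sh-ctrl lowest. Spry2 rose 1.53-fold in the Pfkp knockdown (log2 0.61, SE 0.0462, edgeR adjusted p = 7.62e-13) and 1.29-fold in the Lin41 knockdown (0.37, SE 0.047, adjusted p = 5.86e-08).

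Spry4, the most abundant Sprouty transcript, had the groups in another order. It had 249.6, 238.3 and 245.6 CPM in sh-Pfkp, 296.7, 297.6 and 293.3 CPM in sh-Lin41, and 185, 184 and 180.9 CPM in sh-ctrl. The 3 groups were again separate, with sh-Lin41 highest and sh-ctrl lowest. The rise was 1.33-fold in the Pfkp knockdown (log2 0.42, SE 0.0244, edgeR adjusted p = 1.5e-15) and 1.61-fold in the Lin41 knockdown (log2 0.69, SE 0.0239, adjusted p = 1.64e-21), the largest change of the 10 genes in that comparison.

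Spry1 went the other way. It had 8.84, 8.51 and 11.1 CPM in sh-Pfkp, 10.04, 9.46 and 10.4 CPM in sh-Lin41, and 12.5, 11.1 and 14.7 CPM in sh-ctrl. Both knockdowns lay below every control library, with the highest sh-Pfkp library (11.05 CPM) just under the lowest sh-ctrl library (11.12 CPM). The change in the Pfkp knockdown was -0.44 on the log2 scale (SE 0.11, edgeR adjusted p = 0.000985). For Lin41 it was -0.37 (SE 0.109, edgeR adjusted p = 0.00488), and this call was lost without sh-ctrl library 3 (-0.25, adjusted p = 0.0782). In GENCODE vM21, 710 of its 2906 exonic bases overlap Gm42922 on the opposite strand, and whether reads were counted by strand is not given in the sources used here; reads from this pair therefore cannot be told apart.

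Summed in FPKM, the 3 Sprouty transcripts reached 81.5 ± 1.97 in sh-Pfkp, 90.9 ± 1.3 in sh-Lin41 and 62.8 ± 0.693 in sh-ctrl (SD, n = 3). Their make-up also differed. Spry4 was 61.7% of the sum in sh-Pfkp, 69.2% in sh-Lin41 and 62.1% in sh-ctrl, and Spry2 was 33.7% in sh-Pfkp, 26.4% in sh-Lin41 and 29.6% in sh-ctrl. Spry1 was 4.56% of the sum in sh-Pfkp, 4.46% in sh-Lin41 and 8.26% in sh-ctrl.

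The SPRED proteins bring the RAS-inactivating protein neurofibromin to the membrane, and Spred1 changed by more than Spred2. Spred1 had 160.3, 155.2 and 158.1 CPM in sh-Pfkp, 176.5, 183 and 182.7 CPM in sh-Lin41, and 115.5, 115.3 and 118.2 CPM in sh-ctrl. The 3 groups were separate, in the same order as for Spry4. It rose 1.36-fold in the Pfkp knockdown (log2 0.44, SE 0.0286, edgeR adjusted p = 1.78e-14) and 1.55-fold in the Lin41 knockdown (0.64, SE 0.028, adjusted p = 8.36e-19). Spred2 had 117.6, 119.5 and 120.8 CPM in sh-Pfkp, 114.9, 112.5 and 115.3 CPM in sh-Lin41, and 110.7, 112.1 and 107.1 CPM in sh-ctrl. Its groups lay close together without overlap, and the log2 fold change was 0.12 for Pfkp (SE 0.0306, edgeR adjusted p = 0.00155) and 0.06 for Lin41 (SE 0.0306, adjusted p = 0.129; 95% interval -0.01 to 0.12). The Pfkp call of Spred2 was lost with total-count scaling (0.07, adjusted p = 0.0528). In FPKM, Spred1 made up 45.2% of the SPRED sum in sh-Pfkp, 49.8% in sh-Lin41 and 39.9% in sh-ctrl.

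**Figure D3:**
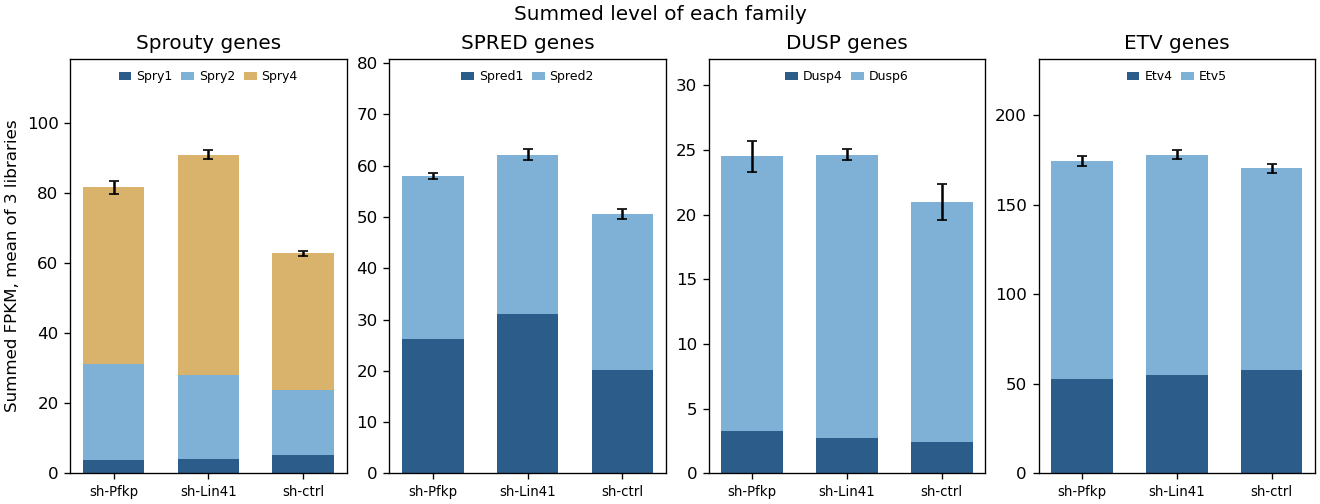
Summed FPKM of each gene family (mean of 3 libraries, stacked by member; bars start at 0 and error bars are the SD of the sum). The Sprouty sum is 81.5 in sh-Pfkp, 90.9 in sh-Lin41 and 62.8 in sh-ctrl, while the ETV sum differs far less between groups.

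The dual-specificity phosphatases Dusp4, a nuclear enzyme, and Dusp6, a cytoplasmic enzyme selective for ERK, were both higher in the Pfkp knockdown. Dusp4 was scarce, with 9.58, 8.72 and 9.54 CPM in sh-Pfkp, 7.13, 7.33 and 7.71 CPM in sh-Lin41, and 7.1, 6.78 and 5.51 CPM in sh-ctrl. The sh-Pfkp libraries stood above all others, and the lowest sh-Lin41 library lay just above the highest sh-ctrl library. It rose 1.44-fold in the Pfkp knockdown (log2 0.53, SE 0.117, edgeR adjusted p = 0.000295), and its change in the Lin41 knockdown was not called (0.2, SE 0.12, adjusted p = 0.168; 95% interval -0.05 to 0.44). Dusp6 had 62.4, 57.2 and 62.0 CPM in sh-Pfkp, 59.7, 62.1 and 60.1 CPM in sh-Lin41, and 46.8, 51.1 and 55.8 CPM in sh-ctrl. The knockdowns overlapped each other and lay above the control libraries, which were spread more widely. Dusp6 rose 1.18-fold in each knockdown (log2 0.24, SE 0.0501, edgeR adjusted p = 0.000147 for Pfkp; log2 0.24, SE 0.0497, adjusted p = 0.000116 for Lin41). Dusp6 supplied 86.5% of the DUSP sum in FPKM in sh-Pfkp, 89% in sh-Lin41 and 88.5% in sh-ctrl.

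The ETS factors Etv4 and Etv5, which act on ERK target genes in the nucleus, moved by small amounts and in opposite directions. Etv5 had 486.9, 483.6 and 493.6 CPM in sh-Pfkp, 486.8, 478.4 and 478.1 CPM in sh-Lin41, and 441, 436.4 and 446.2 CPM in sh-ctrl. Both knockdowns lay above control and overlapped each other. The log2 fold change was 0.15 for Pfkp (SE 0.0191, edgeR adjusted p = 1.11e-07) and 0.13 for Lin41 (SE 0.0191, adjusted p = 1.57e-06). Etv4 had 125.2, 127.6 and 132 CPM in sh-Pfkp, 131.9, 130.1 and 128.8 CPM in sh-Lin41, and 136.6, 133.6 and 138.2 CPM in sh-ctrl. All 6 knockdown libraries lay below the control libraries by a small margin. The log2 fold change was -0.09 for Pfkp (SE 0.0294, edgeR adjusted p = 0.0121) and -0.06 for Lin41 (SE 0.0292, adjusted p = 0.0642, unadjusted 95% interval -0.12 to -0.004). The Pfkp call of Etv4 was lost without sh-ctrl library 3 (adjusted p = 0.0738) or sh-Pfkp library 1 (0.0931), while total-count scaling gave -0.14 (adjusted p = 0.000242). The ETV sum was 174.5 ± 2.91 FPKM in sh-Pfkp, 177.9 ± 2.42 FPKM in sh-Lin41 and 170.2 ± 2.53 FPKM in sh-ctrl, and Etv4 supplied 30.1% of it in sh-Pfkp, 30.9% in sh-Lin41 and 33.8% in sh-ctrl.

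Between the knockdowns, sh-Pfkp over sh-Lin41, 2 genes were higher (Spry2 and Dusp4), 2 were lower (Spry4 and Spred1) and 6 were not called. Over all tested genes 27.4% were called higher and 27.8% lower. Spry2 was higher in sh-Pfkp by 0.24 on the log2 scale (SE 0.0432, edgeR adjusted p = 1.76e-05) and Dusp4 by 0.33 (SE 0.112, adjusted p = 0.0134), a call that limma on log2(FPKM + 1) did not make (0.21, adjusted p = 0.0543). Spry4 was lower in sh-Pfkp (-0.28, SE 0.0229, edgeR adjusted p = 5.89e-12), as was Spred1 (-0.2, SE 0.0265, adjusted p = 1.99e-07). For the uncalled genes the unadjusted 95% intervals of the log2 fold change ran from -0.02 to 0.08 for Fgf4, 0.001 to 0.12 for Spred2, -0.1 to 0.09 for Dusp6, -0.08 to 0.04 for Etv4 and -0.02 to 0.06 for Etv5, and from -0.31 to 0.15 for the scarcer Spry1. The median absolute log2 fold change was 0.0689 over the 10 genes and 0.21 over all tested genes.

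The authors' deposited table gave an FDR under 0.05 to 8 of the 10 genes in the Pfkp comparison and to 6 in the Lin41 comparison, and the authors' deposited tables of filtered genes held none of them. In the authors' deposited table the 2 genes not under that FDR in the Pfkp comparison were Fgf4 (log2 ratio 0.01, FDR 0.0559) and Etv4 (log2 ratio -0.13, FDR 0.0572). That ratio is of mean FPKM, and how the FDR was computed is not given. The ratio and the FDR may therefore rest on different scalings.

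Patterns over the 9 libraries were compared as the root mean square (RMS) difference of log2 CPM after centring each gene on its sh-ctrl mean, as a description. This difference is not scaled for the size of a gene's change. Genes that changed little, such as Fgf4 and Spred2, therefore lie close to each other whatever their pattern. Among the 10 genes, the closest pairs were Fgf4 and Spred2 (0.0379), Spry4 and Spred1 (0.0428) and Spred2 and Etv5 (0.051), and the most distant pair was Spry1 and Spry4 (0.786). Among 11740 genes compared, the closest to Fgf4 were Ubac2 (RMS 0.0171), Nol7 (0.0204) and Pgam5 (0.0226), and the closest to Spry2 were Ildr1 (0.0276), Dido1 (0.0455) and Ahnak (0.0479).

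The rest of the pathway gave a mixed picture. Over all tested genes 28.3% were called higher and 28.3% lower in the Pfkp knockdown, and 26.9% and 27.3% in the Lin41 knockdown. In sh-Pfkp over sh-Lin41 the shares were 27.4% and 27.8%. The counts of this list and of each list below stand beside these shares. Of 16 genes of other FGF ligands and receptors, 13 were tested, and in the Pfkp knockdown 8 fell, 1 rose and 4 were not called, with a median log2 fold change of -0.41. Fgf15, a ligand gene of embryonic tissues, fell to 14.1 ± 0.789 CPM in sh-Pfkp, against 31.4 ± 1.15 CPM in sh-ctrl (log2 -1.16, SE 0.069, edgeR adjusted p = 2.35e-15). Among the receptors, Fgfr3 fell to 1.75 ± 0.261 CPM in sh-Pfkp, against 7.94 ± 0.676 CPM in sh-ctrl (-2.17, SE 0.158, adjusted p = 2.79e-13). Fgfr2 rose to 8.48 ± 1.58 CPM in sh-Pfkp, against 3.11 ± 0.245 CPM in sh-ctrl (1.44, SE 0.15, adjusted p = 1.03e-09). Fgfr1, the most abundant receptor at 32.3 FPKM in sh-Pfkp, 35.6 FPKM in sh-Lin41 and 32.9 FPKM in sh-ctrl, was not called in the Pfkp knockdown (-0.01, SE 0.0307, edgeR adjusted p = 0.877). It rose in the Lin41 knockdown (0.11, SE 0.0302, adjusted p = 0.0024) and was lower in sh-Pfkp than in sh-Lin41 (-0.12, SE 0.0299, adjusted p = 0.00124).

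Of these 13 genes in the Lin41 knockdown, 2 rose, 3 fell and 8 were not called (median -0.04). Fgf15 fell to 13.2 ± 0.123 CPM in sh-Lin41 (log2 -1.25, SE 0.0691, edgeR adjusted p = 2.91e-16), Fgf10 to 3.23 ± 0.677 CPM in sh-Lin41, against 8.66 ± 0.276 CPM in sh-ctrl (-1.43, SE 0.142, adjusted p = 3.81e-10), and Fgfr3 to 4.13 ± 0.164 CPM in sh-Lin41 (-0.94, SE 0.134, adjusted p = 4.47e-07). In sh-Pfkp over sh-Lin41, 2 were higher and 7 lower (median -0.23), led by Fgfrl1, a receptor that lacks the kinase domain (-1.16), Fgfr3 (-1.23) and Fgfr2 (0.95). Fgf5 and Fgf8, ligands of the primed epiblast and the streak, were too scarce to test, at under 1 FPKM in every group.

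The 22 genes of the RAS to ERK cascade changed in both directions, as did all tested genes. Over all tested genes 28.3% were called higher and 28.3% lower in the Pfkp knockdown, and 26.9% and 27.3% in the Lin41 knockdown. Of the 22 genes, 8 rose, 5 fell and 9 were not called in the Pfkp knockdown (median log2 fold change 0.02). That balance turned with the scaling: 6 rose and 8 fell with total counts only, and 5 rose and 7 fell with limma on log2(FPKM + 1). The MEK1 gene Map2k1 fell to 90.5 ± 3.41 CPM in sh-Pfkp, against 117.9 ± 1.44 CPM in sh-ctrl (-0.38, SE 0.0337, edgeR adjusted p = 2.53e-11), and the ERK1 gene Mapk3 fell to 29.6 ± 0.805 CPM in sh-Pfkp, against 43.2 ± 0.803 CPM in sh-ctrl (-0.54, SE 0.0506, adjusted p = 9e-11). Against control, 5 rose in the Lin41 knockdown, 7 fell and 10 were not called (median -0.01). There the adaptor gene Shc1 fell (-0.46, SE 0.032, edgeR adjusted p = 7.63e-14), as did Map2k1 (-0.37, SE 0.0334, adjusted p = 3.7e-11), and Nf1, which encodes neurofibromin, the partner of SPRED proteins, rose (0.62, SE 0.0431, adjusted p = 1.08e-13). In sh-Pfkp over sh-Lin41, 10 were higher and 6 lower (median 0.07), led by Nf1 (-0.58), Shc1 (0.4) and Nras, a RAS gene (-0.3). This split also depended on the scaling: 8 were higher and 6 lower with total counts only, and 6 and 6 with limma on log2(FPKM + 1).

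Other ERK feedback and target genes included the largest falls among the lists described here. Of 20 genes 17 were tested, and in the Pfkp knockdown 4 rose, 7 fell and 6 were not called (median log2 fold change -0.14), while 2 rose and 10 fell with total counts only. The immediate early factor gene Egr1 fell to 6.69 ± 0.177 CPM in sh-Pfkp and 20.8 ± 0.863 CPM in sh-Lin41, against 67.2 ± 1.01 CPM in sh-ctrl (-3.33, SE 0.064, edgeR adjusted p = 4.93e-28 for Pfkp; -1.69, SE 0.0511, adjusted p = 5.33e-23 for Lin41). Dusp9, another ERK phosphatase, fell to 150.4 ± 5.1 CPM in sh-Pfkp, against 217.7 ± 4.55 CPM in sh-ctrl (-0.53, SE 0.0285, adjusted p = 1.28e-16), and Rasa3, which encodes a GTPase-activating protein, fell as well (-0.78, SE 0.0618, adjusted p = 2.3e-12). In the Lin41 knockdown 5 rose, 5 fell and 7 were not called (median 0.04). Ier3, an immediate early gene, fell to 4.03 ± 0.652 CPM in sh-Lin41, against 18.8 ± 0.876 CPM in sh-ctrl (-2.23, SE 0.106, edgeR adjusted p = 6.8e-18), and the ephrin receptor gene Epha2 rose to 208.7 ± 2.28 CPM in sh-Lin41, against 156.8 ± 5.37 CPM in sh-ctrl (0.41, SE 0.0268, adjusted p = 1.58e-14). In sh-Pfkp over sh-Lin41, 2 were higher and 9 lower (median -0.18), led by Egr1 (-1.64), Epha2 (-0.48) and Ier3 (1.84).

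Among 12 other ETS factors, 2 rose and 3 fell in the Pfkp knockdown (2 and 5 with total counts only; median log2 fold change -0.06), led by Ets2 (-0.53, SE 0.0506, edgeR adjusted p = 1.56e-10), Etv6 (0.36, SE 0.0441, adjusted p = 2.29e-08) and Etv3 (0.38, SE 0.0654, adjusted p = 8.63e-06). In the Lin41 knockdown 6 rose and 3 fell (median 0.06), led by Elk3 (0.64, SE 0.0463, adjusted p = 2.24e-13), the ERK-controlled repressor gene Erf (0.26, SE 0.0258, adjusted p = 3.15e-10) and Etv3 (0.51, SE 0.064, adjusted p = 3.94e-08). In sh-Pfkp over sh-Lin41, 1 was higher and 5 were lower (median -0.15), led by Elk3 (-0.61), Erf (-0.28) and Elf2 (-0.28).

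Naive pluripotency factors whose transcripts are raised by MEK inhibition in mouse ES cells were mostly higher in the knockdowns. Of 9 such genes, 6 rose and 3 fell in the Pfkp knockdown (median log2 fold change 0.24), led by Klf2 (0.72, SE 0.0366, edgeR adjusted p = 3.29e-17), Zfp42 (0.41, SE 0.023, adjusted p = 5.11e-16) and Nr0b1 (0.52, SE 0.039, adjusted p = 5.85e-13). In the Lin41 knockdown 8 rose and 1 was not called (median 0.53), led by Zfp42 (0.78, SE 0.0226, adjusted p = 2.28e-23), Nanog (0.53, SE 0.0179, adjusted p = 8.6e-22) and Tbx3 (0.71, SE 0.0289, adjusted p = 1.11e-19). In sh-Pfkp over sh-Lin41, 1 was higher and 7 were lower (median -0.35), led by Klf4 (-0.69), Nanog (-0.35) and Zfp42 (-0.37). For comparison, the median log2 fold change of all tested genes lay within 0.013 of 0 in each comparison, and no list was tested as a set.

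**Figure D4:**
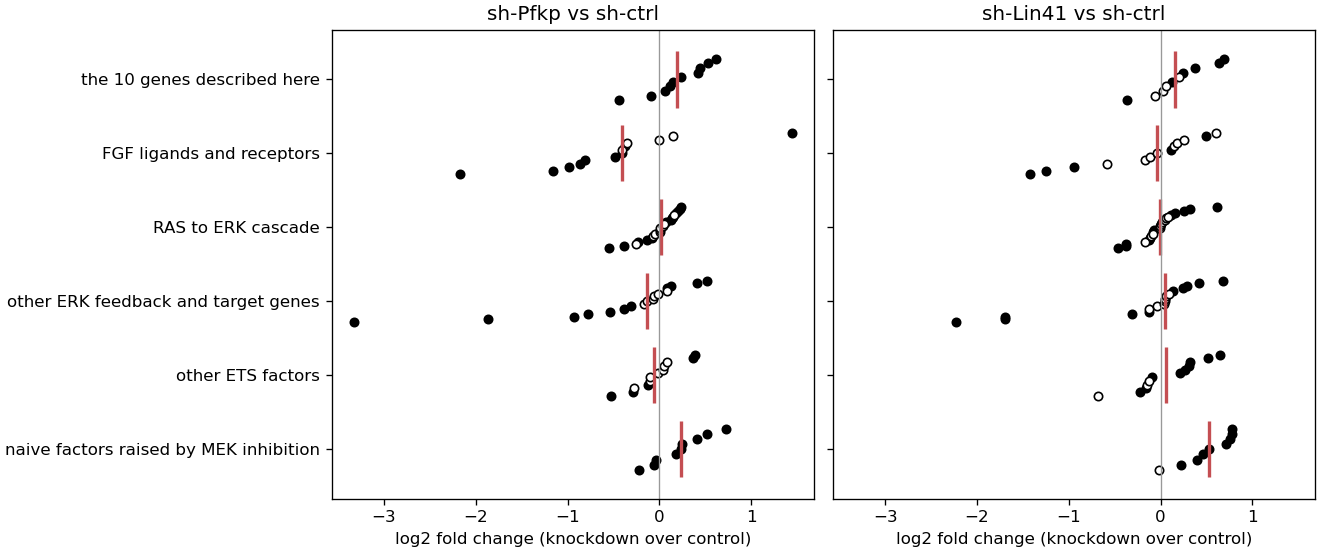
log2 fold change (knockdown over control) of every tested gene of 6 groups of genes; filled points passed an edgeR adjusted p of 0.05, open points did not, and red lines are medians. The 10 genes lie within 1 log2 unit of 0, while the list of other ERK targets reaches -3.33 (Egr1) in the Pfkp knockdown.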

How the data were processed

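Per the labels, total RNA (Trizol) went into NEBNext Ultra libraries. Tools in the submitters' processing notes are HISAT2 and RSEM, without versions, Bowtie2 2.2.8, StringTie 1.3.1 and fastp 0.18.0. Not given in the sources used here are the authors' build, annotation, strand option and differential expression tool. The deposited read counts are whole numbers per gene and library, and since RSEM is named they may be estimates that the authors rounded. The deposited FPKM are per library. Further deposited columns, made by the authors, hold a log2 ratio of mean FPKM, a p-value and an FDR. Both tables hold the same values for the 3 sh-ctrl libraries, so all 9 libraries entered one fit.

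Genes were filtered with filterByExpr by group, scaled with TMM and tested with edgeR 4.0.16 (quasi-likelihood, two-sided, R 4.3.3, 6 residual degrees of freedom), with Benjamini-Hochberg adjustment over 13158 genes and a threshold of 0.05. Intervals use the moderated 31.2 degrees of freedom and are not adjusted for the number of genes tested. An interval can therefore exclude 0 for a gene that was not called. The steps were tested on simulated data. Of the 22322 genes, 4283 had 0 counts in all libraries. Replicate pairs differed by more than counting noise (median chi-square 0.661 to 0.769, against 0.455), so no pair held copied counts. Such a difference cannot tell separate cultures from repeat libraries of 1 RNA. Beyond counting noise, the coefficient of variation within groups was 0.0213 (square root of the edgeR common dispersion). Each library entered the fit as 1 sample. Alternatives were DESeq2 1.42.0, limma 3.58.1 on counts and on log2(FPKM + 1) or log2(FPKM + 0.1), other scaling and filters, a minimum of 2-fold, fits of only the 6 libraries compared, a replicate block and leaving out each library.

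The 10 genes and the gene lists were chosen with earlier results of these data known. Named genes were all 10, the 2 hairpin targets, up to 3 called genes per list (smallest adjusted p first), and the 3 nearest patterns to Fgf4 and to Spry2; Fgfr1, Fgf5, Fgf8 and the named markers were added after their values were seen. Sequences are from RefSeq (GRCm38.p6) and gene overlaps from GENCODE vM21. Values of 1 gene of the RAS to ERK cascade list are not reported here.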

Additional observations from a re-analysis of the deposited data

How the results depend on the processing

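With a 2-fold minimum added to the edgeR test, 0 of the 10 genes were called in any comparison, and the calls over all genes fell to 857 for sh-Pfkp over sh-ctrl, 560 for sh-Lin41 over sh-ctrl and 591 for sh-Pfkp over sh-Lin41. Of 570 log2 fold changes of the 10 genes under alternatives, 536 kept their direction and their side of the threshold, 15 lost the call, 4 gained it and 15 changed sign. All sign changes were of uncalled values in sh-Pfkp over sh-Lin41: Dusp6 (0.006 in DESeq2, 0.005 with RLE scaling, 0.0 with 6 libraries, and -0.024 to 0.043 with a library left out), Fgf4 (-0.016 with total counts and with either FPKM pseudocount), Etv5 (-0.026 with total counts, -0.01 with either FPKM pseudocount) and Spry1 (-0.19 to 0.003 with a library left out). With a library left out, 8 to 10 of the 10 genes were called in sh-Pfkp over sh-ctrl, 5 to 7 in sh-Lin41 over sh-ctrl and 4 in sh-Pfkp over sh-Lin41. Etv4 gained a call in sh-Lin41 over sh-ctrl with RLE scaling (adjusted p = 0.0495) or without sh-ctrl library 2 (0.0426), and in sh-Pfkp over sh-Lin41 with total counts (0.0436), as did Spred2 there with RLE scaling (0.0437). With limma on log2(FPKM + 1), 3 rather than 5 of the FGF ligand and receptor genes were called in sh-Lin41 over sh-ctrl. The cause of these differences was not tested.

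What the labels' replicate numbers mark is not stated, and same-numbered libraries did not deviate together in all pairs (r across genes from 7.26e-05 to 0.125 between sh-Pfkp and sh-ctrl), so the numbers were not taken as pairing. With these numbers as a replicate block, the fit called 10 of the 10 genes and 7435 of all genes in sh-Pfkp over sh-ctrl (7451 of all without the block), 6 and 7109 in sh-Lin41 over sh-ctrl (7141), and 4 and 7196 in sh-Pfkp over sh-Lin41 (7255), and changed no call on the 10 genes.

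With 3 libraries a group, the standard errors of the scarce genes Spry1 and Dusp4 (0.109 to 0.12) were the largest of the 10 genes, against at most 0.0501 for the others, so their changes are less precisely known. Total-count scaling, on which FPKM rest, moved the median log2 fold change of all genes by -0.048 in sh-Pfkp over sh-ctrl.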

Other observations

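The gene length that each library's count, FPKM and total count imply differed slightly between groups for Etv5. It was 3907 to 3921 bases in sh-Pfkp, 3948 to 3958 bases in sh-Lin41 and 3945 to 3972 bases in sh-ctrl, so the sh-Pfkp libraries stood below the others without overlap. Dusp4, whose FPKM are low and rounded, implied 2736 to 2737 bases in sh-ctrl, 2740 to 2744 bases in sh-Pfkp and 2742 to 2744 bases in sh-Lin41. For Spry1, Spred1 and Spred2 the implied length varied between libraries with overlapping groups. For Fgf4, Spry2 and Spry4 the implied length was the same in every library (3030, 2087 and 4755 bases). Levels of single transcripts were not analysed here. The FPKM of Etv5 are divided by its implied lengths, while its CPM are not corrected for length.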
